A study of Mus musculus with 8 samples.

Results

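Expression of 6 genes of complement, Fc receptors and the myeloid cell surface, C1qa, C3, C4a, Fcgr4, Cd68 and Sirpa, was described in mouse splenic CD8 T cell cultures. The genes were taken by name, as 6 of the 754 genes measured with an nCounter panel (Myeloid Innate Immunity), which counts transcripts directly by hybridisation to colour-coded probes, with no amplification step. CD8+ T cells enriched from C57BL/6 spleens by negative selection were cultured for 48 hours in 200 µl of conditioned medium, with anti-CD3 and anti-CD28 antibodies (2 µg/ml) in every culture. The medium came from B16F10 SSBP4-knockout cells (KO medium, 4 samples) or from B16F10 SSBP4-wildtype cells (WT medium, 4 samples), which had conditioned it for 48 hours. B16F10 is a mouse melanoma line. Per the labels, the knockout was made in the melanoma cells and the RNA was taken from T cells. No target gene thus checks the labels in these RNAs. Neither separate mice or cultures for the 4 samples of a medium nor tumour clones are given in the labels. The p-values thus reflect the spread among these samples alone, and part of it may be technical.

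Complement is a cascade of plasma proteins that tags particles for uptake and lysis. C1q, whose A chain is encoded by C1qa, starts the classical pathway on bound antibody, C4 is cleaved next, and C3 is the component on which all pathways converge. Whether the C4a transcript measured here yields a C4 protein that works in this pathway was not tested. Fc receptors bind the constant part of antibodies. Fcgr4 encodes an activating mouse receptor for IgG, found mainly on monocytes, macrophages and neutrophils. Cd68 encodes a glycoprotein of late endosomes and lysosomes that is widely used as a macrophage marker, and Sirpa encodes an inhibitory receptor whose ligand is CD47, the "do not eat me" signal. None of the 6 is a usual marker of CD8 T cells.

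Of the 6 genes, 3 rose in KO medium (Sirpa, Fcgr4 and C4a), 1 fell (Cd68) and 2 did not pass (C1qa and C3), by limma with Benjamini-Hochberg adjustment over all 454 genes tested. Over those 454 genes 71.6% passed, with 46.9% higher and 24.7% lower, so the shares among the 6 lay near the background. The median log2 difference of the 6 genes was 1.93, against 0.41 over all genes tested, and 1.53 with Fcgr4 set at the lower bound given below. That 1.93 is the midpoint between C3 at 0.15 and Sirpa at 3.72, and no member stood near it. The 6 genes were chosen with earlier results of these data known, so the median describes no shared shift. A gene was tested if its mean over the 8 samples reached 22.1, a threshold called background below (2 SD above the mean count of the negative controls). The control counts are unscaled, while the threshold was applied to scaled signal, so calls close to it depend on the scale. All 6 passed that filter, Fcgr4 through KO medium alone. Levels are the authors' normalized signal, and differences are on the log2(signal + 1) scale, KO medium minus WT medium. In these bulk samples, more cells of a type and more RNA per cell cannot be told apart.

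Promoter sequences are shown for the 2 genes that passed in opposite directions and have an entry in the promoter table, Fcgr4 and Cd68. They are the 250 bases before the annotated start in RefSeq's GRCm38.p6, printed in the gene's direction. In Fcgr4 (chr1:171018676-171018925, plus strand) capitals mark a match to the interferon-stimulated response element (GAAA, any 2 bases, GAAA) and, on the other strand, a match to the PU.1 core GAGGAAGT. In Cd68 (chr11:69666171-69666420, minus strand) capitals mark matches to the AP-1 motif TGANTCA.
Fcgr4: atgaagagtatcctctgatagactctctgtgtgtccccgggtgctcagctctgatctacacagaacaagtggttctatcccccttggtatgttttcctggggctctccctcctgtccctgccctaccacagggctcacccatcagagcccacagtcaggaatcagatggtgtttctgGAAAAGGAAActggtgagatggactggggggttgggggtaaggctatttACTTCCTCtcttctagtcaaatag
Cd68: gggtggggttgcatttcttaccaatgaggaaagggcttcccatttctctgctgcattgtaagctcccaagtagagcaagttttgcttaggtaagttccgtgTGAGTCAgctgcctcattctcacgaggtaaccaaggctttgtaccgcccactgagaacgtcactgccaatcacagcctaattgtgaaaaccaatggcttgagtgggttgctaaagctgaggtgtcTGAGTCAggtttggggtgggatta
The Fcgr4 matches began 73 and 24 bases before the start and did not overlap. The Cd68 matches began 149 and 24 bases before the start. Both strands were searched. The response element letters occur in 2.98% of the 32851 RefSeq windows of this length, the PU.1 core in 2.44% and the AP-1 motif in 6.75%. The interferon-gamma activated site TTCNNNGAA, present in 7.02% of windows, had no match in either gene, and the C3 window held none of these 4 motifs. C1qa, C4a and Sirpa had no entry in the table. A match says only that these letters are present.

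Sirpa had a signal of 877, 741, 821 and 844 in KO medium samples 1 to 4, against 60.2, 59.7, 55.5 and 71.2 in WT medium samples 1 to 4. The lowest KO medium sample stood 10.4-fold above the highest WT medium sample, and within each medium the samples lay close together. Its mean was 821 ± 57.9 in KO medium and 61.7 ± 6.71 in WT medium (SD, n = 4 each), a ratio of 13.3. The fitted log2 difference was 3.72 (SE 0.11, 95% interval 3.47 to 3.96, limma adjusted p = 8.26e-09), higher in 4 of 4 same-numbered sample pairs, as were 52.4% of all genes tested. By log2 difference Sirpa ranked 15 of 454. With samples 1 and 2 of both media alone the difference was 3.73, and with samples 3 and 4 alone it was 3.71. Cd47, which encodes the ligand of this receptor, had a signal of 1119, 1252, 1609 and 1346 in KO medium and 934, 938, 883 and 889 in WT medium. Its log2 difference was 0.53 (SE 0.11, limma adjusted p = 0.00204), against a median of 0.41 over all genes tested. That direction rested on the scaling, since Cd47 passed as higher under 2 of 7 scalings and as lower under 1, the scaling to T cell genes, where it stood at -0.71 (limma adjusted p = 0.0193).

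Fcgr4 was below background in all 4 WT medium samples and above it in all 4 KO medium samples. Its signal was 61.1, 56.7, 508 and 444 in KO medium samples 1 to 4, from 46, 49, 479 and 468 recovered counts. In WT medium it was 2.38, 1.00, 9.10 and 1.06, from at most 10 counts, and 1.00 and 1.06 are the lowest gene values listed in their samples. The groups did not overlap, and the KO medium samples fell apart into a lower pair, 1 and 2, and a higher pair, 3 and 4. With WT medium values raised to background, the rise was at least 7.57-fold in geometric mean, and KO medium was higher in 4 of 4 same-numbered pairs. The fit on the values as listed gave a limma adjusted p of 0.000389, for a gene that entered the test through the medium in which it was high. The groups failed to overlap with KO medium higher for 44.3% of all genes tested. The exact 95% Poisson interval of KO medium sample 1, 44.7 to 81.5 on the signal scale, did not reach that of sample 3, 464 to 556. Such intervals cover counting error only.

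C4a had a signal of 170, 192, 1535 and 1164 in KO medium samples 1 to 4, against 7.92, 25.3, 68.2 and 46.8 in WT medium. The groups did not overlap. The lowest sample of KO medium was 2.49-fold above the highest of WT medium, where 3 of 4 samples reached background. Both media showed their lower values in samples 1 and 2, with a highest-to-lowest ratio of 9.03 in KO medium and 8.61 in WT medium. The means were 765 ± 691 in KO medium and 37.1 ± 26.2 in WT medium (SD, n = 4 each), a ratio of 20.6. The log2 difference was 4.05 (SE 0.89, 95% interval 2.03 to 6.08, limma adjusted p = 0.00289). Within same-numbered pairs it was 4.26, 2.87, 4.47 and 4.61 for numbers 1 to 4. The call was lost when samples 1 and 2, and samples 3 and 4, of each medium were averaged, which leaves 2 values per medium (limma adjusted p = 0.0521). In that fit 31.7% of all genes passed as higher and 17.6% as lower. Mouse C4a has a near-identical neighbour, C4b, which was not analysed here, and whether the probe told the transcripts of these copies apart was not tested.

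**Figure D1:**
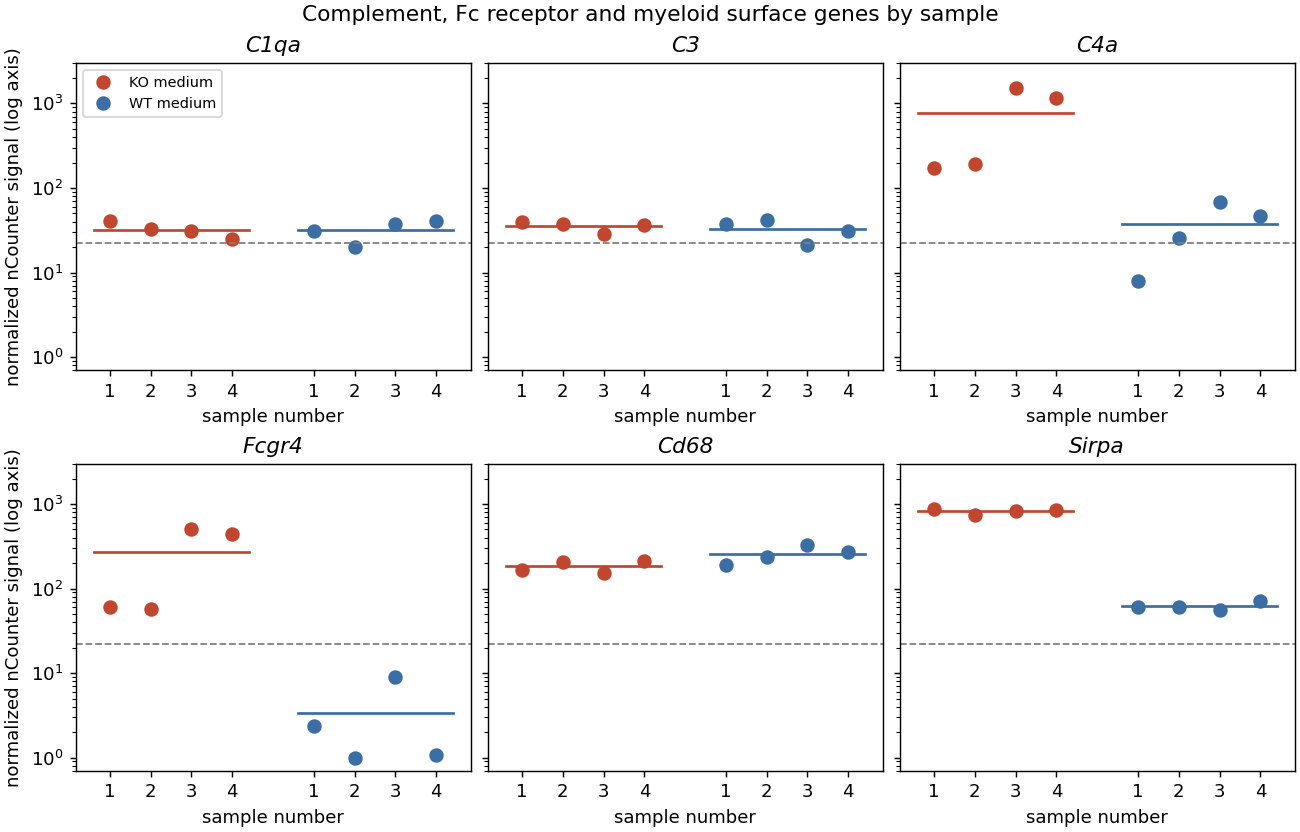
Normalized nCounter signal (log axis) of the 6 genes in each KO medium sample (red) and WT medium sample (blue), with group means as lines and background, 22.1, as a dashed line. Sirpa lies in 2 tight, separate groups, Fcgr4 and C4a are higher in KO medium samples 3 and 4 than in 1 and 2, and C1qa and C3 lie near background in both media.

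The pair of higher KO medium samples was shared by C4a and Fcgr4 but not by the other 4 genes. The mean of KO medium samples 3 and 4 over that of samples 1 and 2 was 8.08 for Fcgr4 and 7.45 for C4a, which ranked 5 and 8 of 454 genes by this ratio. The ratio was 1.03 for Sirpa, 0.98 for Cd68, 0.84 for C3 and 0.75 for C1qa, and its median over all genes tested was 1.19. In WT medium the same ratio was 3.46 for C4a, and Fcgr4 had no level above background there.

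Cd68 was the member that fell. Its signal was 166, 204, 154 and 209 in KO medium samples 1 to 4, against 192, 236, 328 and 270 in WT medium. The groups overlapped, since KO medium samples 2 and 4 stood above WT medium sample 1, but Cd68 was lower in KO medium in 4 of 4 same-numbered pairs, as were 26.7% of all genes tested. The means were 183 ± 27.5 in KO medium and 257 ± 57.4 in WT medium (SD, n = 4 each). The log2 difference was -0.47 (SE 0.18, 95% interval -0.88 to -0.06, limma adjusted p = 0.0411). Leaving out WT medium sample 2, 3 or 4 or KO medium sample 1 or 3 took the call away (limma adjusted p of 0.0630, 0.103, 0.0961, 0.0885 and 0.0956). With samples 1 and 2 alone the difference was -0.21 (limma adjusted p = 0.242), and with samples 3 and 4 alone it was -0.73 (limma adjusted p = 0.00655). Of all genes tested, 30.4% passed as lower in samples 1 and 2 alone and 22.2% in samples 3 and 4 alone. Whether the difference itself differed between these pairs of samples was not tested.

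C1qa had a signal of 41.2, 32.4, 30.8 and 24.6 in KO medium samples 1 to 4, against 30.9, 19.9, 37.3 and 40.4 in WT medium. The groups overlapped, with 2 same-numbered pairs higher and 2 lower in KO medium. The means were 32.3 ± 6.83 in KO medium and 32.1 ± 9.05 in WT medium (SD, n = 4 each). The log2 difference was 0.03 with a 95% interval of -0.57 to 0.63 (limma adjusted p = 0.926). These values rest on 22 to 41 counts, and WT medium sample 2 lay below background.

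C3 had a signal of 39.9, 37.1, 28.6 and 36.0 in KO medium samples 1 to 4, against 37.2, 41.6, 20.9 and 30.8 in WT medium. All 4 KO medium values lay within the range of WT medium, whose sample 3 was below background as signal, though not as its 23 counts. The means were 35.4 ± 4.78 in KO medium and 32.7 ± 8.99 in WT medium (SD, n = 4 each). The log2 difference was 0.15 with a 95% interval of -0.40 to 0.69 (limma adjusted p = 0.606), on 23 to 47 counts. Neither C1qa nor C3 passed on the values as deposited, and their intervals leave room for a change of either sign.

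How the 6 genes were placed against 0 depended on how samples were scaled. The median log2 difference of all genes was 0.41 as deposited and ran from -0.83 to 0.41 over 7 scalings, the lowest being a scaling to the 5 tested T cell genes Cd247, Cd27, Cd28, Lat and Fyn. Relative to that median, Sirpa stood at 3.27 to 3.34, C4a at 3.60 to 3.89 and Cd68 at -0.88 to -0.85 over the 7 scalings. Fcgr4 has only a bound, since its WT medium values lay below background. Sirpa, C4a and Cd68 passed with the same sign under each of the 7, as did Fcgr4, which entered the test through KO medium alone. Median scaling put 33.5% of all genes higher and 32.6% lower, quantile normalization 36.6% and 30%, and positive controls 38.1% and 25.3%. The shares were 32.8% higher and 35.2% lower with edgeR, 34.4% and 33.5% with DESeq2, and 13.4% and 55.5% with T cell genes. C1qa and C3 stood at -0.50 to -0.35 and at -0.42 to -0.24 relative to the median. Both passed as lower when samples were scaled to the T cell genes, by -1.17 (limma adjusted p = 0.00713) and -1.06 (limma adjusted p = 0.0251) on the log2 scale.

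**Figure D2:**
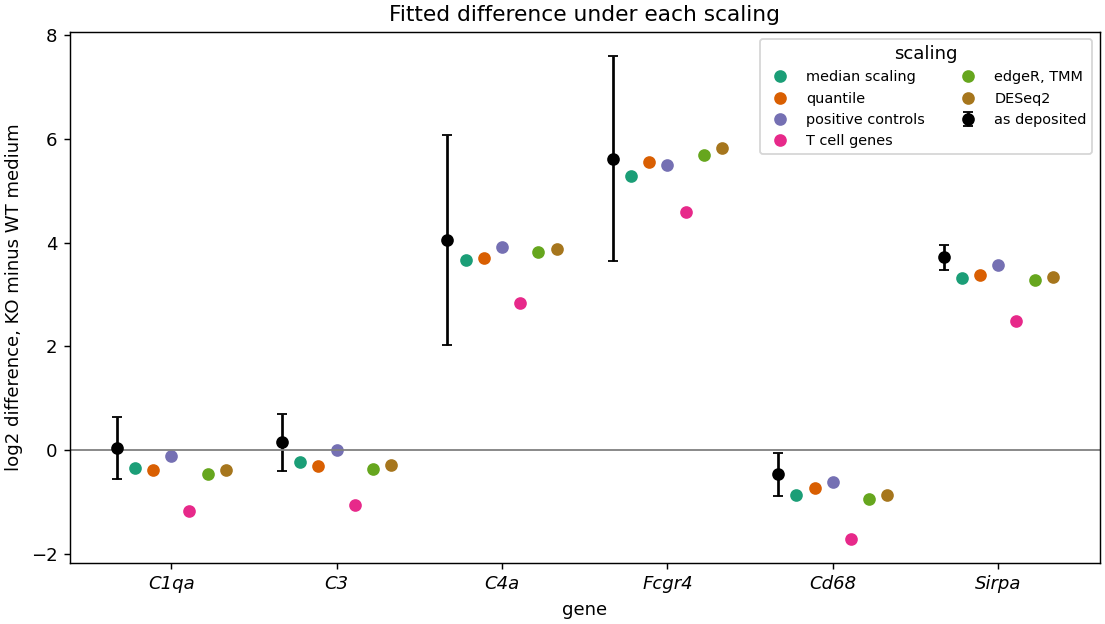
Fitted log2 difference, KO medium minus WT medium, of each gene under 7 scalings or count models, with the 95% limma interval for the values as deposited. The points of Sirpa, Fcgr4 and C4a lie above 0 and those of Cd68 below 0 under each scaling, while C1qa and C3 lie near 0 as deposited and lowest when scaled to T cell genes. The points of Fcgr4 are fitted against WT medium values below background and depend on the pseudocount.

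Related genes on the panel mostly stayed at background. Of 34 other complement genes listed, 8 were measured and 7 of these were below background in all 8 samples, including C1qb and C1qc, the other chains of C1q, and the anaphylatoxin receptor genes C3ar1 and C5ar1. The remaining gene, Itgam, a chain of complement receptor 3, had a mean of 30.4 ± 5.85 in KO medium and 27.7 ± 3.19 in WT medium (SD, n = 4 each, limma adjusted p = 0.628). Of 22 other genes of Fc receptors and their signalling, 8 were measured, and all 5 receptor genes among them (Fcgr1, Fcgr2b, Fcgr3, Fcer1a and Fcer2a) were below background throughout. Of the 6 measured Fc receptor genes, Fcgr4 alone was above background in any sample. Fcgr2b came close to that line, at 20.15 and 21.8 in KO medium samples 3 and 4. Vav1, an exchange factor gene downstream of immune receptors, was the gene tested in that list and had a log2 difference of 0.94 (SE 0.24, limma adjusted p = 0.00712). It passed as higher under 6 of 7 scalings and stood at -0.29 when scaled to T cell genes. Syk, the kinase that Fc receptors signal through, had a mean too low for the test and is named after its values were seen. It was 31.9, 31.3, 28.6 and 32.2 in KO medium and 3.96, 2.71, 1.82 and 5.31 in WT medium, above background in KO medium alone.

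Of 38 other myeloid surface genes listed, 20 were measured, 16 were below background in all samples, and Cd47 alone was tested. The macrophage receptor genes Csf1r, Adgre1, Mrc1, Mertk, Cd163 and Siglec1 were among the 16. The other 3, Cd14, Cd80 and Marco, each reached background in 1 of 8 samples, and are named after their values were seen.

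**Figure D3:**
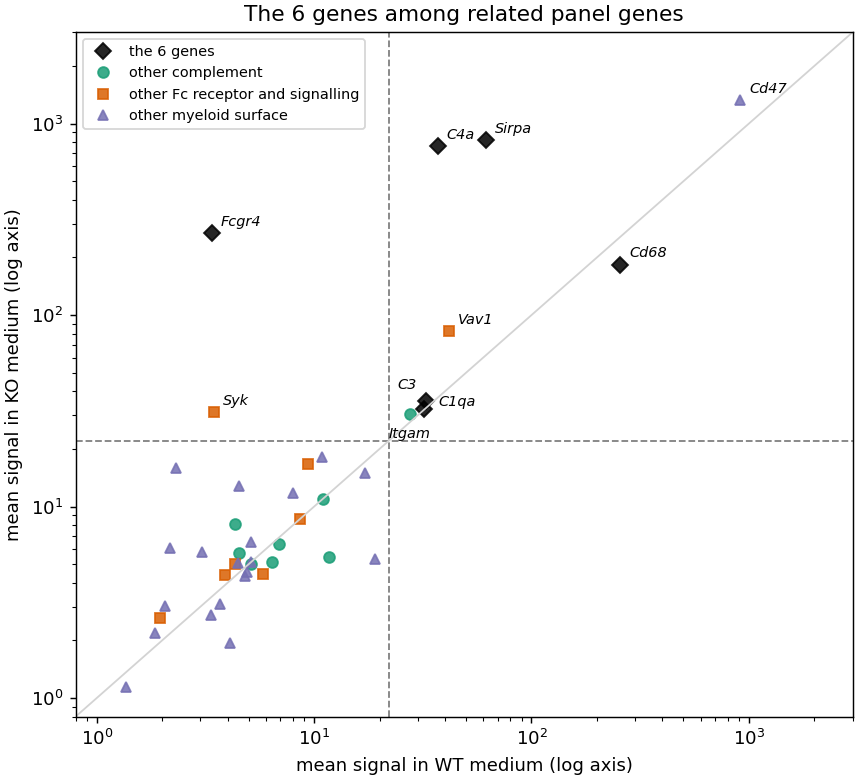
Mean signal in KO medium against mean signal in WT medium (log axes, n = 4 each) for the 6 genes (black diamonds) and other measured genes of complement, Fc receptors with their signalling, and the myeloid surface, with background as dashed lines and equal levels as the grey diagonal. Most related genes lie below background on both axes, and Fcgr4, C4a and Sirpa stand well above the diagonal.

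Markers of the cells that usually hold these transcripts were set beside the results. Of 16 measured macrophage and monocyte markers other than the 6 genes, 11 were below background in all samples, and 3 were tested. None of the 3 passed, with limma adjusted p of 0.0594 for Ccr2 (unadjusted 0.0430), 0.366 for Ly6c1 and 0.628 for Itgam. Ccr2, a chemokine receptor gene of monocytes that T cells also express, was 83.7, 113, 352 and 293 in KO medium and 20.6, 42.5, 146 and 90.3 in WT medium. Like C4a it had its higher values in samples 3 and 4 of both media. Its log2 difference was 1.58 (SE 0.67), with 1.97, 1.39, 1.27 and 1.69 within same-numbered pairs, and with the sample number as a block it passed as higher (limma adjusted p = 0.000115). With the same block Ly6c1 passed as lower, at -0.39 (limma adjusted p = 0.0145). Ly6c1, which activated CD8 T cells also express, made up most of the summed level of that list, which ran from 608 to 1358 in KO medium and from 555 to 1580 in WT medium. Without Ly6c1 the sums were 207 to 491 in KO medium and 128 to 282 in WT medium, and Ccr2 was the largest single gene of each of these KO medium sums. Of 13 dendritic cell markers 9 were below background throughout. Irf8, a transcription factor gene of dendritic cells, macrophages and B cells, was 53.1, 71.8, 373 and 285 in KO medium and at most 14.6 in WT medium, and Fscn1 fell. The summed level of that list was 154 to 526 in KO medium and 793 to 879 in WT medium, where it was nearly all Fscn1. Without Fscn1 the order turned, with sums of 139 to 513 in KO medium and 89.9 to 119 in WT medium. Irf8 was the largest single gene of each of these KO medium sums, and sums without Irf8 as well were not taken. Cd1d1, the other tested marker of that list, did not pass (limma adjusted p = 0.961). Of 5 measured B cell markers, Cd74 and H2-Aa rose, and Ms4a1 (CD20) lay between 13.3 and 30.8 in every sample. The other 2, Btk and Fcer2a, were below background throughout. The list summed to 437 to 5214 in KO medium and 67.0 to 108 in WT medium. Cd74 was the largest single gene of that sum in every sample. Without Cd74 the sums were 73.07 to 1399.08 in KO medium and 32.57 to 50.04 in WT medium. Neutrophil markers were below background for 10 of 12 genes, with sums of 50.4 to 123 in KO medium and 105 to 126 in WT medium. Of the 2 tested, Mmp9 passed as lower, at -0.73 (limma adjusted p = 0.0293), as did 24.7% of all genes tested. It passed as lower under each of 7 scalings, and Fpr2 did not pass (limma adjusted p = 0.855). The part of these cell types in the differences of Sirpa, Fcgr4 and C4a was not tested.

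The labelled cell type rests here on 5 measured T cell genes, since the CD3 and CD8 chain genes were not analysed here. All 5 rose as deposited, as did 46.9% of all genes tested, with a median log2 difference of 1.27 against 0.41. Scaling to these same genes sets their mean difference near 0 by construction. Their summed level was 1064 to 1429 in KO medium and 517 to 715 in WT medium. Fyn was the largest single gene of that sum in every sample. In WT medium Cd28 was above background in 2 of 4 samples and Lat in 3 of 4. Other lists also moved with the medium. Of 6 tested mesenchymal genes 5 fell, against 24.7% of all genes tested as deposited, and these passed as lower under each of the 7 scalings. With the sample number as a block Fn1 lost its call, at -0.57 (limma adjusted p = 0.05004). Pdgfrb passed as higher under 2 of 7 scalings. The mesenchymal list, in KO medium mostly Fn1, summed to 567 to 881 in KO medium and 2818 to 3714 in WT medium. The endothelial list, in WT medium nearly all Cd34, summed to 27.6 to 48.6 in KO medium and 4539 to 5095 in WT medium, and the mast cell list, in WT medium nearly all Il1rl1, summed to 24.4 to 34.7 in KO medium and 4886 to 7910 in WT medium. Met, which made up nearly all of the 2 measured genes on the melanocyte list, brought its sum to 2020 to 3196 in KO medium and 378 to 459 in WT medium. The 3 natural killer genes measured summed to 534 to 1175 in KO medium and 141 to 681 in WT medium. Among them Nkg7 passed as higher as deposited, at 1.60 (limma adjusted p = 0.00824), and under 6 of 7 scalings. Klrk1 passed as higher with the block alone, at 0.82 (limma adjusted p = 0.00535), and Gzma did not pass (limma adjusted p = 0.314). Totals of recovered counts ran from 188174 to 346676 per sample. The part of these shifts in the results of the 6 genes was not tested.

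The tested genes most like each member over the 8 samples were found by the root mean square difference of log2(signal + 1) after centring each gene on its own mean. C4a lay nearest to H2-Eb1, a chain of MHC class II, at 0.48, then to Irf8 at 0.73 and to Cd74, which encodes the class II invariant chain, at 0.76, where the median over all other genes was 2.20. Fcgr4 lay nearest to Cd74 at 0.60, Irf8 at 0.90 and H2-Aa, another class II chain, at 0.95, against a median of 2.85. These distances take in values below background, which H2-Eb1 had in 6 of 8 samples, Irf8 in all 4 WT medium samples and H2-Aa in 3 of them. In an alternative chosen after seeing the data, values below background were raised to it. C4a then lay nearest to H2-T23 at 0.45, Fcgr4 at 0.63 and Cd74 at 0.67, and Fcgr4 to H2-Ab1 at 0.28, Irf8 at 0.28 and H2-DMa at 0.42. The order of neighbours thus changed with the treatment of low values. Each of the 4 genes H2-Eb1, Irf8, Cd74 and H2-Aa had its higher values in KO medium samples 3 and 4. Cd74, for example, was 364, 401, 3815 and 3208 in KO medium and 30.1, 36.2, 58.2 and 32.9 in WT medium.

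Sirpa had other neighbours, which showed no such spread within KO medium. They were Cdkn1a, the cell cycle inhibitor p21, at 0.22, the semaphorin gene Sema6d at 0.26 and Krba1 at 0.33, against a median of 1.70 over all other genes. With values below background raised to it, Loxl2 at 0.12 and Rapgef4 at 0.21 came before Cdkn1a, and Fosb at 0.18 came before Itgam for C1qa. Cdkn1a was 1491, 1683, 1563 and 1504 in KO medium and 134, 137, 112 and 102 in WT medium. Cd68 lay nearest to Adamts1 at 0.14, C1qa to Itgam at 0.24 and C3 to Nr4a2 at 0.18, with medians of 0.73, 0.67 and 0.65. These distances describe 8 samples that share the difference between media, and nothing about shared function follows from them.

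**Figure D4:**
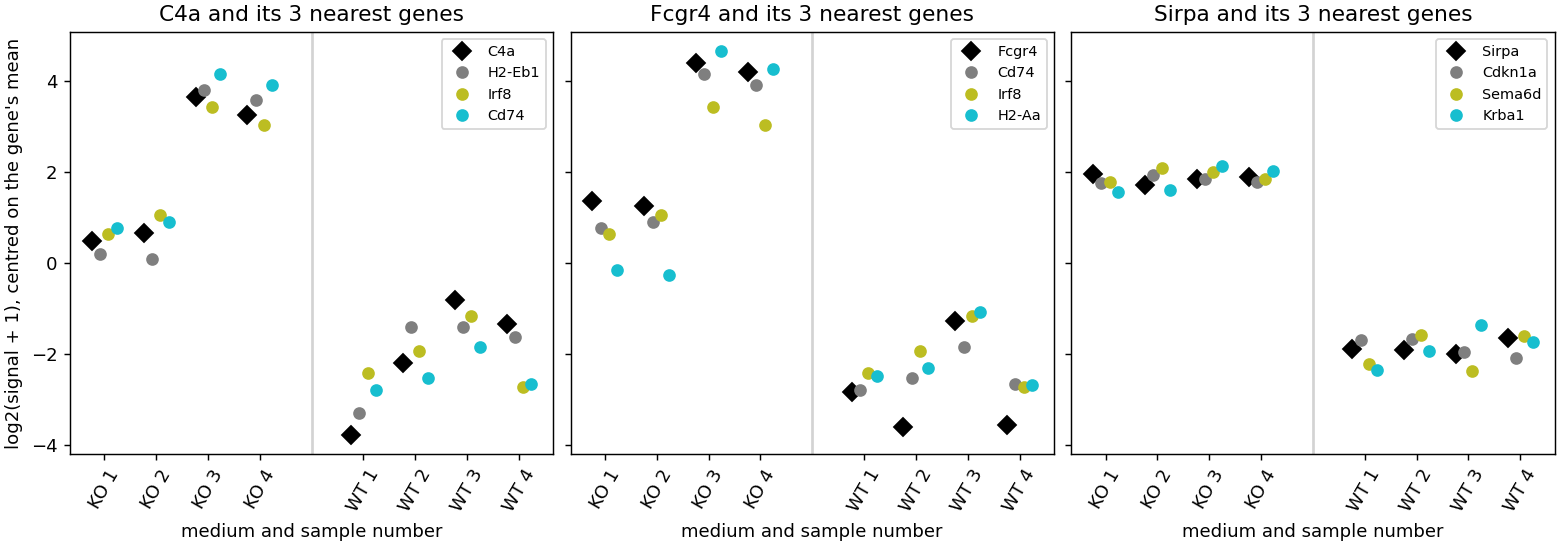
Centred log2(signal + 1) of C4a, Fcgr4 and Sirpa (black diamonds) and of the 3 tested genes nearest to each (coloured circles) in every KO and WT medium sample. The C4a and Fcgr4 panels step up at KO medium samples 3 and 4, where the Sirpa panel stays level. Many WT medium points come from values below background.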

How the data were processed

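The deposited table holds 1 normalized signal per gene and sample for 754 genes, with 6 positive and 8 negative control probes as unscaled counts. Per the labels, the assay was the nCounter Myeloid Innate Immunity panel. How the authors made the signal (software, normalization) is not given in the sources used here. Gene signals were whole multiples of 1 factor per sample (0.792 to 1.33, tolerance 0.1 of a step) for 100% of values above 1 in 7 samples and 99.9% in KO medium sample 1. Dividing by the factor gave counts, of which totals ran from 188174 to 346676. No gene was listed below 1 count or below a value of 1. Samples were grouped by their titles.

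KO medium was compared with WT medium by limma 3.58.1 in R 4.3.3 (lmFit, eBayes with a mean-variance trend, two-sided) on log2(signal + 1), over the 454 genes whose mean reached background, with Benjamini-Hochberg adjustment and a threshold of 0.05. The limma fit as run here was tested on counts simulated for these genes. Alternatives were other pseudocounts, filters and scalings, edgeR 4.0.16 and DESeq2 1.42.0 on the recovered counts (149 genes higher and 160 lower, and 156 and 152), the sample number as a block, left-out samples and averaged samples.

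Same-numbered samples of the media deviated together (correlations of 0.454, 0.296, 0.465 and 0.197 across genes, which are not independent), each over 0.1, so same numbers count as pairs here. KO medium samples 2 and 4 correlated more with WT medium samples 1 and 3 (0.396 and 0.424). The fit has no block, and blocked values stand beside results whose call they change. That pairing comes from the values and the titles' numbers, whose meaning the labels leave out. Samples 1 and 2, and 3 and 4, were also alike across media.

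Besides the 6 members, genes were named if they were tested members of the related lists, among the 3 most abundant measured markers of a cell type, or among the 3 nearest genes by profile. Genes below background or too low for the test, Syk, Cd14, Cd80, Marco and the neighbours after raising low values were named outside that rule, after their values were seen. The members and lists were chosen with earlier results of these data known. All 6 symbols matched RefSeq, and 3 had a promoter entry.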

Additional observations from a re-analysis of the deposited data

Results flagged for a closer look

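Among the 12 sets of 4 samples checked (6 genes in 2 media), 1 held a sample far from the others. Fcgr4 in WT medium sample 3 had a signal of 9.10, with a gap to the next sample of 0.83 of the group's range. All 4 WT medium values of Fcgr4 lay below background. Chance gives such a gap in about 1 of 20 groups.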

How the results depend on the processing

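Sirpa kept its direction and its call under all 23 alternatives, with log2 differences of 2.48 to 3.79. C4a did so in 22 of 23, with 2.84 to 4.56, and lost its call at 4.05 when the samples were averaged in pairs (limma adjusted p = 0.0521). Fcgr4 also passed as higher under all 23. It entered the test through KO medium alone, and every fit rests on WT medium values below background. Its unchanged call thus adds no separate evidence. The fitted size of Fcgr4 depends on the pseudocount and is no measured size. Cd68 stayed negative throughout but lost its call in 8 of 23: at -0.47 with no filter (limma adjusted p = 0.0532) and with averaged samples (limma adjusted p = 0.149), at -0.21 with samples 1 and 2 only, and in 5 of 8 fits without 1 sample (all 8 gave -0.60 to -0.34). C1qa turned negative with median scaling (-0.35), quantile normalization (-0.39), positive controls (-0.11), T cell genes (-1.17), edgeR (-0.46), DESeq2 (-0.39) and samples 3 and 4 only (-0.48), and ran from -0.18 to 0.15 without 1 sample. C3 turned negative with median scaling (-0.24), quantile normalization (-0.31), T cell genes (-1.06), edgeR (-0.36), DESeq2 (-0.28) and samples 1 and 2 only (-0.034), and ran from -0.045 to 0.27 without 1 sample. Under the stricter filter C1qa and C3 were not tested. Scaling to T cell genes gave 61 genes higher and 252 lower, against 213 and 112 as deposited. Other scalings also moved the split, to 152 and 148 for median scaling, 166 and 136 for quantiles, 173 and 115 for positive controls, 149 and 160 for edgeR and 156 and 152 for DESeq2. The cause of these changes was not tested. Of the other genes described, the replicate block changed the calls of Ccr2, Ly6c1, Klrk1 and Fn1. It changed no call among the 6 genes, with limma adjusted p of 2.63e-05 for C4a and 0.0400 for Cd68. C1qa and C3 rest on at most 47 counts per sample, which limits what can be told apart there.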
